A study of Mus musculus with 4 samples.

Results

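The genes described here are 8 members of the lipoprotein receptor family, *Vldlr*, *Lrp1*, *Lrp2*, *Lrp4*, *Lrp5*, *Lrp6*, *Lrp8* and *Sorl1*, out of 22367 protein-coding genes in the mouse annotation. They were chosen by name, as receptors of this family, and each was found once in the annotation. Their position at the nuclear lamina was read from DamID of primary mouse hepatocytes of 2 genotypes, wild type (WT) and knockout (KO) for *Tm7sf2*, whose product, also called NET47, is a transmembrane protein of the nuclear envelope (NE) and the endoplasmic reticulum and a sterol reductase. In DamID a bacterial methylase, Dam, is fused to lamin B1 and marks the adenine of GATC sites in DNA that comes near the lamina, and Dam without the fusion marks accessible DNA. For each genotype 1 library was made with Dam-LaminB1 and 1 with Dam only. Cells of both genotypes came from C57BL/6 mice aged 12 to 16 weeks and were transduced with lentivirus for 24 h. They were kept in serum-free medium with dexamethasone, insulin and epidermal growth factor, and were cultured further after transduction before DNA was taken. The KO mice were *Tm7sf2*-/- animals, without a restriction of the KO to hepatocytes. Each of the 4 libraries held pooled DNA of 4 mice. There were no replicate libraries, so the differences given here have no error between animals and no test. The cell type cannot be checked from positions, since a list of intervals holds no expression.

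The deposited lists give lamina-associated domains (LADs), the stretches in which the Dam-LaminB1 signal exceeded that of Dam only, as start and end positions on the mm9 genome. There were 8107 LADs in WT, with a median length of 40.8 kb and a total of 1472 Mb, and 16076 in the KO, with a median of 38.8 kb and a total of 1490 Mb. A differential region (DR) is a stretch of at least 10 kb that was a LAD in only 1 genotype, of which there were 7787 for WT and 8208 for the KO. A gene that overlapped a WT-only DR was called PI, for peripheral in WT and internal in the KO. A gene that overlapped a KO-only DR was called IP, and a gene that overlapped both kinds was called ambiguous (AMB). Of the remaining genes, those on a LAD in both genotypes were PP and all others were II. The lists carry no signal, score or read number, so the depth behind a LAD is unknown and its borders have no interval. The study had fewer usable reads for the KO than for WT, and the part of this difference in depth in the larger number of KO LADs and in the calls was not tested.

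Receptors of this family are transmembrane proteins that bind lipoproteins and many other ligands at the cell surface and carry them into the cell. They share cysteine-rich ligand-binding repeats and propeller domains in the extracellular part, and a short cytoplasmic tail that engages adaptor proteins. In the liver such receptors clear lipoprotein remnants from the blood, while in other tissues several members serve as signaling receptors for reelin, Wnt proteins or agrin.

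Of the 8 genes, *Vldlr* was PI, *Lrp2* was IP, *Sorl1* was AMB, and *Lrp1*, *Lrp4*, *Lrp5*, *Lrp6* and *Lrp8* were II, so 3 genes overlapped a DR and none was PP. Of all protein-coding genes 5.43% were PI, 17.1% IP, 2.96% AMB, 17.9% PP and 56.6% II. The receptor genes are long, from 37.7 kb for *Vldlr* to 162 kb for *Lrp2*, against a median span of 15.4 kb over all protein-coding genes. Among the 4899 genes with spans in that range, 6.43% were PI, 30.0% IP, 9.31% PP and 49.3% II, and 245 genes were AMB. A count of 1 gene in 8 for each of PI, IP and AMB is a description of these genes and was not tested.

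The 3 genes on a LAD differed in which part of the gene was covered. *Vldlr* had a WT LAD over most of its body and none at its start site, *Lrp2* had 3 KO LADs including the start site, and *Sorl1* had WT LADs and KO LADs on separate parts of the same gene. The sequences around the borders that carry these differences are shown in mm9 coordinates, 60 bases each in the direction of transcription, with the GATC site at the border in capitals.

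*Vldlr*, end of the KO LAD before the gene, chr19:27285622-27285681, plus strand: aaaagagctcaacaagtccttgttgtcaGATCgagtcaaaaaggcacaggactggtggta
*Vldlr*, WT LAD border in intron 1, chr19:27300640-27300699, plus strand: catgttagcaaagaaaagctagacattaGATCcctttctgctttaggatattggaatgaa
*Lrp2*, KO LAD border before the start site, chr2:69437229-69437288, minus strand: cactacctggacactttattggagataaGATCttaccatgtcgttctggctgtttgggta
*Lrp2*, KO LAD border in intron 1, chr2:69409708-69409767, minus strand: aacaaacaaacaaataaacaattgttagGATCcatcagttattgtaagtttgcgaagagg
*Lrp2*, KO LAD border in exon 52, chr2:69303655-69303714, minus strand: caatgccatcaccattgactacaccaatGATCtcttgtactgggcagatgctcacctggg
*Sorl1*, KO LAD border before the start site, chr9:41945138-41945197, minus strand: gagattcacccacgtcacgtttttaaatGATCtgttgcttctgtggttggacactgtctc
*Sorl1*, KO LAD border in intron 1, chr9:41923249-41923308, minus strand: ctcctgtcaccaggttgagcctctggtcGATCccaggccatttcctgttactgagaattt
*Sorl1*, WT LAD border in exon 43, chr9:41787490-41787549, minus strand: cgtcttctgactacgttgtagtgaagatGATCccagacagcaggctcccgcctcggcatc
*Lrp4*, end of the KO LAD before the gene, chr2:91295450-91295509, plus strand: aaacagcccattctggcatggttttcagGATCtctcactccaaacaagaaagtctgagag

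Borders within 30 kb of a gene were read for the LADs on, or at most 10 kb from, *Vldlr*, *Lrp2*, *Sorl1* and *Lrp4*. All 21 of them fell on a GATC site, which follows from the method, since LADs were called on fragments between such sites. Of these borders 11 were in introns, 2 in exons and 8 outside the genes. A border could thus be placed no more finely than the distance between neighboring sites, which over the genome averaged 1 site in 399 bases. How much coarser the placing was cannot be read from positions alone. In the receptor genes the spacing ranged from 389 bases per site in *Lrp4* to 478 in *Lrp6*. *Vldlr*, with 97 sites at 389 bases per site, was thus sampled at about the same density as the other genes.

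**Figure D1:**
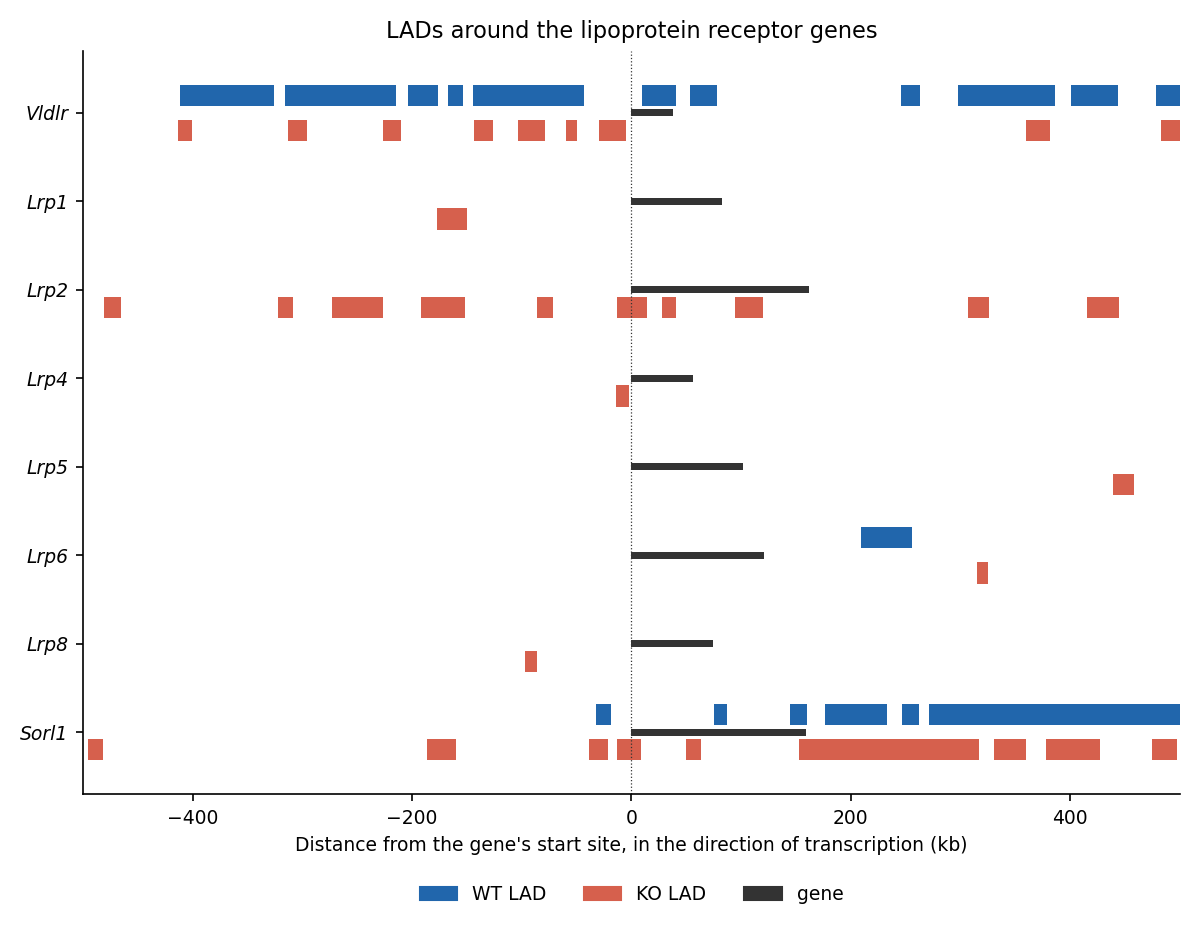
LADs within 500 kb of the start site of each of the 8 lipoprotein receptor genes, drawn to scale along the direction of transcription (x axis, kb). Blue bars are WT LADs, red bars KO LADs and dark bars the genes, with 1 pooled library pair per genotype. *Vldlr* has 11 WT LADs in this window and *Lrp2* has none in WT and 10 in the KO.

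*Vldlr* encodes a receptor for very low-density lipoproteins (VLDL), which are rich in triglycerides, and for reelin. It is best known in heart, muscle, fat and brain. The gene, ENSMUSG00000024924.7, lies at chr19:27290974-27328721 on the plus strand. In WT, 74.3% of its span lay in a single LAD, chr19:27300671-27331402, which is 30.7 kb long and holds 76 GATC sites. In the KO, 0% of the span lay in a LAD. The whole WT LAD was a WT-only DR.

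The WT LAD of *Vldlr* began 9.70 kb after the gene's start, inside intron 1, and ended 40.4 kb after it, beyond the last exon. In transcript Vldlr-001, exons 2 to 19 lay in the LAD and exon 1 did not, so that 18 of 19 exons were covered in WT and 0 in the KO. These exons hold 7.63 of the 7.97 kb of the transcript, or 95.7%. They include the long last exon of 5127 bases. Of the 6 annotated protein-coding transcripts, 5 start before the LAD, 8.60 to 9.16 kb short of its border. The sixth, Vldlr-009, a short form with 6 exons, starts 22.3 kb into the gene and so inside the WT LAD.

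The start of *Vldlr* was in no LAD in either genotype but had a LAD of each genotype nearby on opposite sides. The KO LAD chr19:27261785-27285652, 23.9 kb long, ended 5.32 kb before the gene and was itself a KO-only DR. The WT LAD began 9.70 kb past the start. The start of *Vldlr* therefore lay nearer to a LAD in the KO than in WT, while the body of the gene was on a LAD in WT alone.

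The larger neighborhood of *Vldlr* held more WT LAD than the median over all genes, though less than the upper quartile of 62.2%. In the 1 Mb centered on its start site, 11 WT LADs covered 55.5% and 9 KO LADs covered 16.3%, against medians over all genes of 23.3% in WT and 28.8% in the KO. The window held 405 kb of WT-only DRs in 11 pieces and 23.9 kb of KO-only DR in 1 piece. The closest WT LADs on either side of the one on the gene lay 43.6 kb before the gene and 15.3 kb after it, and the second, 24.7 kb long, was also a WT-only DR. In the KO the next LAD downstream was 322 kb away.

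Only 4 other protein-coding genes start in or overlap that 1 Mb, the fewest for any of the receptor genes. The closest of them downstream, *Kcnv2*, which encodes a silent potassium channel subunit, was II at a distance of 68.4 kb. On the other side *Gm815*, 328 kb away, lay wholly in a WT LAD, with 0% in a KO LAD, and was PI. *Vldlr* is on chromosome 19, where 14.9% of 724 genes were PI and 4.70% IP. *Lrp5*, the other receptor gene on this chromosome, was II.

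The probe for fluorescence *in situ* hybridization (FISH) at *Vldlr* spans 40.2 kb, of which 60.1% is on the gene. Of the probe, 68.5% lay in WT LADs and none in a KO LAD. Most of the 68.5% was in the WT LAD on the gene, and the far end of the probe reached the next WT LAD downstream. The class of *Vldlr* stayed PI with at least 50% of the span required in a DR. It became II when only the start site was placed or when DRs under 50 kb were left out, and AMB for a 100 kb window centered on the gene, which takes in the KO LAD upstream.

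*Lrp8*, which encodes the other reelin receptor and acts beside *Vldlr* in layering the cortex, had no LAD in either genotype. It lies at chr4:107474866-107549445 on the plus strand, ENSMUSG00000028613.8. Its start was 1933 kb from the nearest WT LAD, the longest WT distance of the 8 genes, and 85.9 kb from the nearest KO LAD, a region of 11.1 kb upstream. The 5 protein-coding transcripts start at 0.0160 to 28.7 kb into the gene, none of them in a LAD. In the surrounding 1 Mb, 0% was WT LAD and 1.11% was KO LAD. The pair of reelin receptor genes thus had a WT LAD coverage of 74.3% for *Vldlr* and 0% for *Lrp8*.

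**Figure D2:**
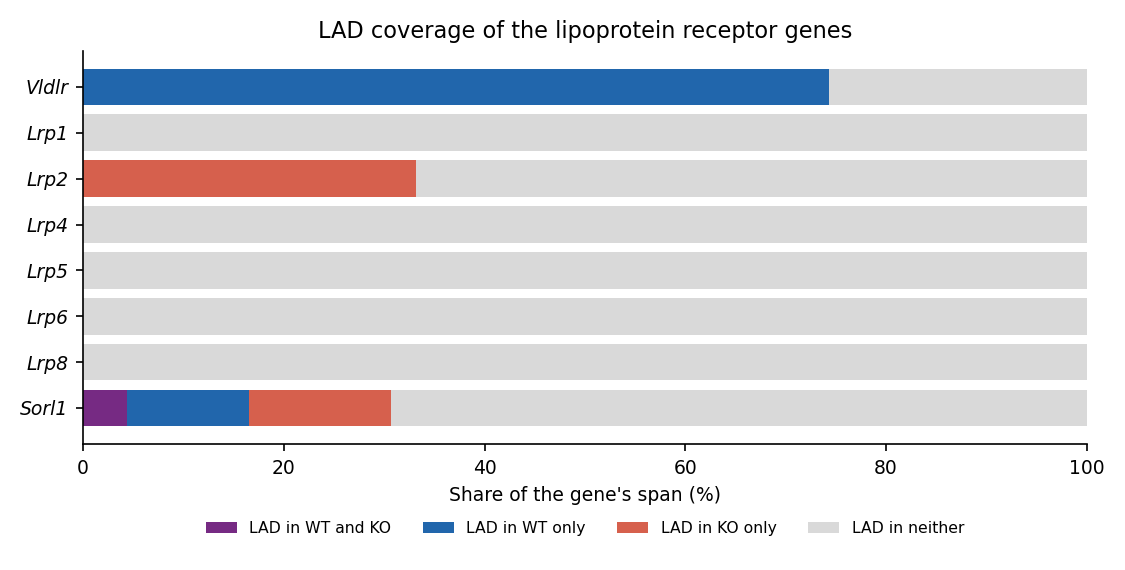
Share of the span of each lipoprotein receptor gene (x axis, %) that lay in a LAD of both genotypes, of WT only, of the KO only, or of neither. *Vldlr* is covered in WT only (74.3%), *Lrp2* in the KO only (33.2%), *Sorl1* in parts by each, and 5 genes not at all.

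*Lrp2* encodes megalin, a giant endocytic receptor best known in the proximal tubule of the kidney, where it retrieves proteins and vitamin carriers from the filtrate. The gene, ENSMUSG00000027070.8, lies at chr2:69262397-69424122 on the minus strand and has 79 exons. In WT it met no LAD, and the nearest was 644 kb away. In the KO 3 LADs lay on it and covered 33.2% of its span. All 3 were KO-only DRs over their whole length.

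The KO LAD at the start site of *Lrp2*, chr2:69409739-69437259, was 27.5 kb long and reached from 13.1 kb before the start to 14.4 kb after it. It held exon 1. The second, chr2:69383304-69396330, of 13.0 kb, ran from 27.8 to 40.8 kb after the start and held exons 2 to 4. The third, chr2:69303686-69330036, of 26.4 kb, lay from 94.1 to 120 kb and held exons 35 to 52. Its far border fell inside exon 52. In all, 22 exons were in a KO LAD and 57 were in no LAD, and of the 15.5 kb of exonic sequence 5.08 kb, or 32.9%, was in KO LADs.

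The 3 protein-coding transcripts of *Lrp2* start within 0.0360 kb of each other, all in the KO LAD. The 1 Mb around this start held no WT LAD and 10 KO LADs, which together covered 24.5%, and every one of the 10 was a KO-only DR. The KO LADs here were thus short stretches over a region that was free of LADs in WT. Within this 1 Mb 17 other genes are annotated. Upstream, *Bbs5*, which encodes a subunit of the ciliary BBSome, was IP, with 47.1% of its span in KO LADs and 0% in WT LADs. Downstream, *Dhrs9*, a retinol dehydrogenase gene, was II.

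The 250 bases before the start sites of *Lrp2* and *Sorl1* lay in a KO LAD and in no WT LAD. They are shown because these are the only receptor genes of the 8 with their start site in a LAD.

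*Lrp2*, before the start site, chr2:69424123-69424372, minus strand: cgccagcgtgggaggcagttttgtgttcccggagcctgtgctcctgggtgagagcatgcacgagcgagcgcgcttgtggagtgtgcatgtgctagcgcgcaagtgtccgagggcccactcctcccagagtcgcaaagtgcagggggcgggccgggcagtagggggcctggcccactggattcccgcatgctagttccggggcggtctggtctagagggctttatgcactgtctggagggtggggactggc
*Sorl1*, before the start site, chr9:41932381-41932630, minus strand: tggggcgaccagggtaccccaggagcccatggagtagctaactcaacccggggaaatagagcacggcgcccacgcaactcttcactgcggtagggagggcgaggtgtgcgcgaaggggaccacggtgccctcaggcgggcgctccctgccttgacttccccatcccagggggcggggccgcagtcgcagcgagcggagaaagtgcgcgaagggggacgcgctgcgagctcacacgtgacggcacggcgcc

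Neither window holds a GATC site on either strand (the motif is its own reverse complement), so no letters are in capitals. Their GC content was 66.0% for *Lrp2* and 69.6% for *Sorl1*. Of the 8 receptor genes 2, *Lrp6* and *Lrp8*, had 1 GATC in the 250 bases before the start, and over all protein-coding genes 40.2% of such windows held at least 1. The LAD calls at these 2 start sites therefore rest on fragments that extend beyond the window.

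The call for *Lrp2* stayed IP when only the start site was placed, for the 100 kb window, and with LADs joined across gaps of up to 50 kb. It became II when at least 50% of the span had to lie in a DR and when DRs under 50 kb were left out.

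*Lrp1* encodes the large endocytic receptor of hepatocytes that takes up remnant lipoproteins and proteinase complexes. It lies at chr10:126975217-127058204 on the minus strand, ENSMUSG00000040249.9, with 89 exons, the most of the 8 genes, none of which was in a LAD. Its start was 731 kb from the nearest WT LAD and 150 kb from the nearest KO LAD, a stretch of 27.5 kb upstream that was KO only. The 1 Mb around it was the most gene-dense of the set, with 41 other protein-coding genes, and 0% was WT LAD and 2.75% KO LAD. Both neighbors, *Nxph4* and *Stat6*, were II. The endocytic receptors *Lrp1* and *Lrp2* thus had 0% of their span in WT LADs, with 0% and 33.2% in KO LADs.

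**Figure D3:**
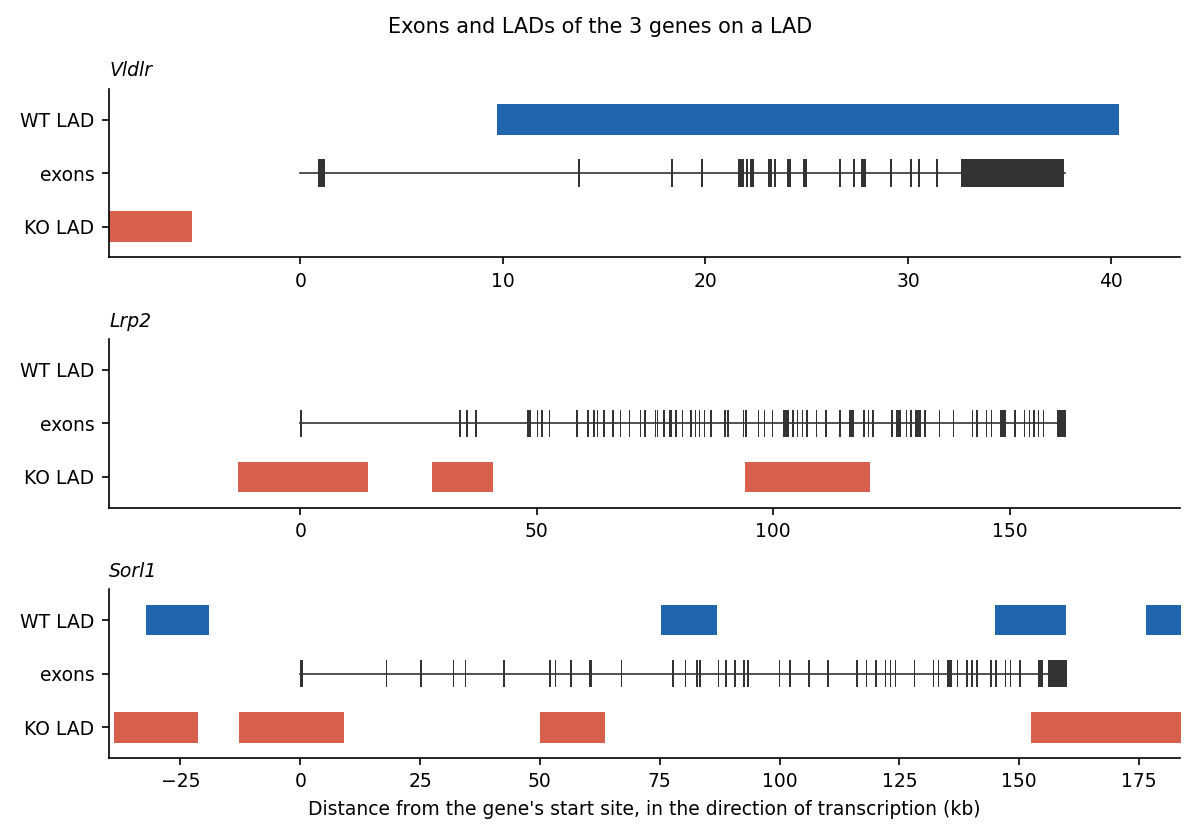
Exons (dark boxes) of *Vldlr*, *Lrp2* and *Sorl1* with WT LADs above (blue) and KO LADs below (red), by distance from the start site in the direction of transcription (x axis, kb, a different scale for each gene). Of the 19 exons of *Vldlr* 18 lie under the WT LAD, 22 exons of *Lrp2* lie over KO LADs, and *Sorl1* has both kinds.

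*Sorl1* encodes a sorting receptor that shuttles cargo such as the amyloid precursor protein between the Golgi apparatus and endosomes, and it joins the ligand-binding repeats of this family to a sortilin domain. The gene, ENSMUSG00000049313.8, lies at chr9:41772803-41932380 on the minus strand and has 48 exons. WT LADs covered 16.5% of its span and KO LADs 18.6%, but the stretches were mostly not the same. Only 4.40% was a LAD in both, while 12.1% was a LAD in WT only, 14.2% in the KO only and 69.3% in neither. The near balance depended on the short LADs. Without LADs under 20 kb the shares were 0% in WT and 10.1% in the KO, and with LADs joined across gaps of up to 50 kb they were 16.5% and 44.2%.

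The start site of *Sorl1* lay in a KO LAD, chr9:41923280-41945168, which reached from 12.8 kb before the start to 9.10 kb after it and held exon 1. In WT the nearest LAD was 18.9 kb upstream. A second KO LAD, of 13.5 kb, ended 63.6 kb after the start and held exons 7 to 11. A WT LAD of 11.6 kb, chr9:41845416-41857048, lay from 75.3 to 87.0 kb and held exons 13 to 16. These 3 were DRs, and the WT-only DR amounted to 7.29% of the span.

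The 3′ end of *Sorl1* was in a LAD in both genotypes. A KO LAD of 165 kb that lies mainly past the gene reached 7.01 kb into it, over exons 47 and 48. A WT LAD of 14.8 kb at the same end went farther in and held exons 43 to 48, with its border inside exon 43. The stretch with exons 43 to 46 was thus a LAD in WT only but is shorter than 10 kb and was no DR. Over the gene, 2 exons were in a LAD in both genotypes, 8 in WT only, 6 in the KO only and 32 in neither. Of 10.7 kb of exonic sequence 5.33 kb lay in WT LADs and 5.29 kb in KO LADs, most of it in the last exon of 3951 bases.

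In the 1 Mb around the start of *Sorl1* 34.1% was WT LAD and 35.8% KO LAD, so the balance was close to even, with 93.8 kb of WT-only and 105 kb of KO-only DRs. The next gene downstream, *2610203C20Rik*, was PP at 372 kb, and upstream *Sc5d*, which encodes a sterol desaturase of cholesterol synthesis, was II at 130 kb. The AMB call depended on the rule. With at least 10% of the span required, with the start site alone, or with DRs of at least 20 kb, *Sorl1* was IP, and with at least 50% of the span or DRs of at least 50 kb it was PP. The WT LADs on the gene are both shorter than 20 kb.

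*Lrp4* encodes the agrin receptor of the neuromuscular junction, which also binds the Wnt inhibitor sclerostin in bone. It lies at chr2:91297668-91354058 on the plus strand, ENSMUSG00000027253.8, and all of its 38 exons were outside LADs. A KO LAD of 12.3 kb, chr2:91283217-91295480, ended 2.19 kb before the gene and was KO only, whereas the nearest WT LAD was 1027 kb away. That contrast rests on this 1 short KO LAD, because with LADs under 20 kb left out the nearest KO LAD was 1038 kb away, farther than the one in WT. *Lrp4* was therefore II by its span, and it was IP for a 100 kb window centered on the gene. This KO LAD was the only one within 500 kb of the start. It overlapped 0.970% of the upstream neighbor *1110051M20Rik*, which was IP, while *Ckap5* on the other side was II.

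*Lrp5* and *Lrp6* encode the co-receptors that Wnt proteins engage together with Frizzled receptors. *Lrp5* lies at chr19:3584825-3686564 on the minus strand, ENSMUSG00000024913.9, and *Lrp6* at chr6:134396494-134516983 on the minus strand, ENSMUSG00000030201.8. Both have 23 exons, and no exon of either was in a LAD. The start of *Lrp5* was 552 kb from a WT LAD and 440 kb from a KO LAD. For *Lrp6* the distances were 209 kb and 315 kb, and the WT LAD, 46.9 kb long and WT only, lay 88.8 kb past the 3′ end of the gene. The 4 neighbors of these genes, *Ppp6r3*, *1810055G02Rik*, *Bcl2l14* and *Mansc1*, were II as well.

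**Figure D4:**
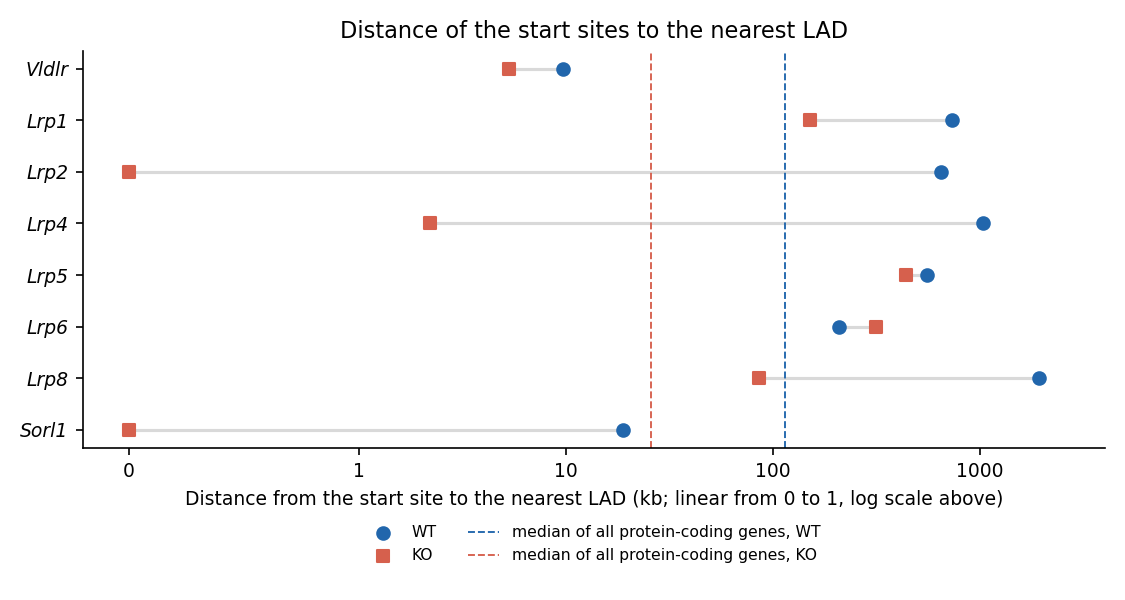
Distance from the start site of each lipoprotein receptor gene to the nearest WT LAD (blue circles) and KO LAD (red squares), on an axis in kb that is linear from 0 to 1 and logarithmic above. Dashed lines are the medians over all protein-coding genes, 114 kb in WT and 25.6 kb in the KO, and with LADs as deposited 7 of the 8 genes lie nearer to a KO LAD, all but *Lrp6*.

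Across the 8 genes, the order of the start sites by distance to a LAD differed between the genotypes. In WT *Vldlr* was nearest, at 9.70 kb, followed by *Sorl1* at 18.9 kb and *Lrp6* at 209 kb, and then *Lrp5*, *Lrp2*, *Lrp1*, *Lrp4* and *Lrp8*, from 552 to 1933 kb. In the KO *Lrp2* and *Sorl1* were at 0, *Lrp4* at 2.19 kb and *Vldlr* at 5.32 kb, and *Lrp8*, *Lrp1*, *Lrp6* and *Lrp5* followed at 85.9 to 440 kb. The start site was nearer to a KO LAD than to a WT LAD in 7 of the 8 genes, against 66.5% of all protein-coding genes, and *Lrp6* was the exception. Of all 22367 genes, 2923 were nearer to a WT LAD and 4559 were equally far from both. The latter include the 4491 genes with the start site in a LAD of both genotypes. Of the 8 receptor genes 0 were equally far, so the 2 shares are not directly comparable. Genes at equal distance also count in the total of the next share. With LADs under 20 kb left out the count was 5 of 8, against 60.4% of all genes, since *Lrp4* (1027 kb in WT, 1038 kb in the KO) and *Lrp5* (552 and 571 kb) then lay nearer to a WT LAD as well.

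The start sites of *Lrp2* and *Sorl1*, 2 of 8, were in a KO LAD and in no WT LAD, against 12.7% of all protein-coding genes. The start of the gene was in a WT LAD in 0 of the 8, against 22.7% of all protein-coding genes, although the transcript Vldlr-009 starts in one. Within 10 kb of the start, a distance chosen after the values were seen, 3 of 8 genes (*Lrp2*, *Lrp4* and *Sorl1*) had a KO LAD and no WT LAD, against 14.7% of all genes. *Vldlr* had a LAD of each genotype within that distance. With 8 genes these counts describe the list and set no group apart.

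The 1 Mb around the start was mostly free of LADs for the II genes. The share in WT LADs was 4.69% for *Lrp6* and 0% for *Lrp1*, *Lrp4*, *Lrp5* and *Lrp8*, and the share in KO LADs ranged from 1.01% for *Lrp6* to 2.75% for *Lrp1*. Each of the 5 windows held 1 KO LAD, of 10.1 to 27.5 kb, and each was KO only. Of the 16 nearest protein-coding genes on the 2 sides of the members, 12 were II, 2 IP, 1 PI and 1 PP. Over all protein-coding genes 56.6% were II, 17.1% IP, 5.43% PI and 17.9% PP. Those other than II lay next to *Vldlr*, *Lrp2*, *Lrp4* and *Sorl1*, of which *Lrp4* is itself II. The neighbor on the other side of each of these genes was II.

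**Figure D5:**
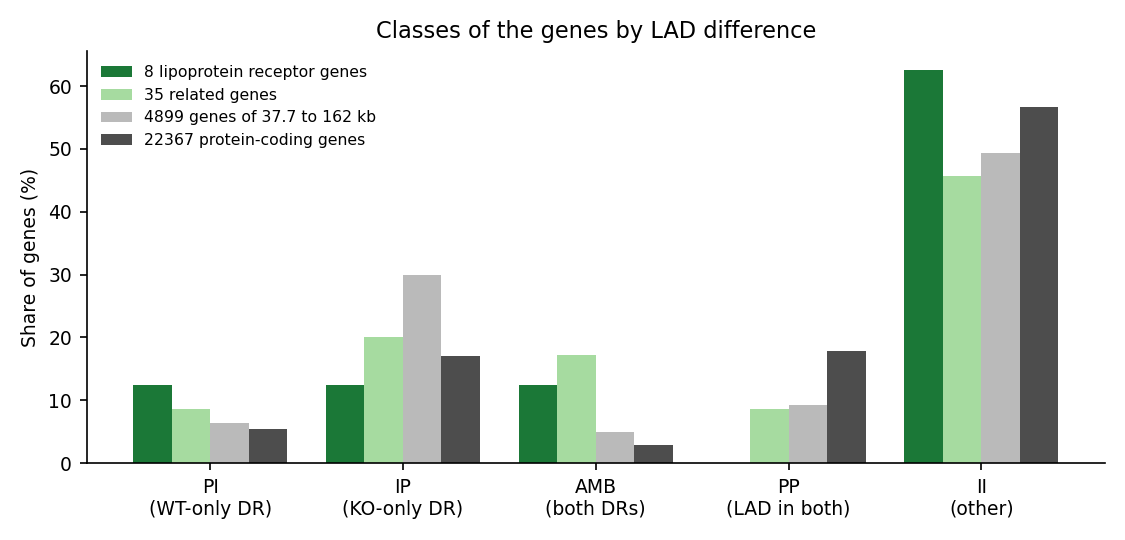
Share of genes (y axis, %) in each class for the 8 lipoprotein receptor genes, 35 related genes, the 4899 protein-coding genes with spans of 37.7 to 162 kb, and all 22367 protein-coding genes. With 8 genes each step is 12.5%, and the receptor genes have 5 genes in II and none in PP.

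A chosen list of 35 related genes was placed in the same way. It holds more distant receptors, sortilins, chaperones, ligands, adaptors and receptors of other families, and is not a complete pathway. Of the 35, 3 were PI, 7 IP, 6 AMB, 3 PP and 16 II. Over all protein-coding genes 5.43% were PI, 17.1% IP, 2.96% AMB, 17.9% PP and 56.6% II. The related genes span 1.55 kb for *Gpihbp1* to 2058 kb for *Lrp1b*, and these shares are not matched to their length. A WT LAD was met by 13 of the 35 and a KO LAD by 19, against 30.4% and 41.7% of all protein-coding genes. The start site was in a KO LAD only for 8 of them and in a WT LAD only for 2, against 12.7% and 2.62% of all genes. These counts were not tested.

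Among the more distant receptors of the family, 3 of 5 were IP, against 17.1% of all protein-coding genes. KO-only DRs covered 96.9% of *Lrp12*, 67.5% of *Lrp11* and 47.2% of *Lrp3*, and none of the 3 met a WT LAD. The nearest WT LAD lay 3.90 kb from *Lrp12*, 63.1 kb from *Lrp11* and 614 kb from *Lrp3*, against 644 kb for *Lrp2*. *Lrp1b*, a receptor gene of 2058 kb and the closest relative of *Lrp1*, lay wholly in a WT LAD with 92.6% in KO LADs, and it was PI through 6.06% of its span. *Lrp10* was II. Of the sortilins, which share the sorting domain of *Sorl1*, *Sorcs1* and *Sorcs3* were PI with 54.9% and 42.4% of their span in WT-only DRs. Both are on chromosome 19. *Sorcs2* was IP through 2.65% of its span and *Sort1* was II.

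Of 9 genes for ligands of the receptors 7 were II, against 56.6% of all protein-coding genes. Among these 7 were the lipase genes *Lpl* and *Lipc*, the agrin gene *Agrn*, and *Dkk1* and *Sost*, whose products block Wnt signaling at *Lrp5* and *Lrp6*. *A2m* was PP with its whole span in LADs of both genotypes. The reelin gene *Reln*, whose product binds the receptors encoded by *Vldlr* and *Lrp8*, was AMB, with 81.2% in WT LADs and 92.6% in KO LADs. Both chaperone genes, *Lrpap1* and *Mesdc2*, were II.

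Of 8 genes for adaptors, co-receptors and receptor turnover, 4 were AMB, against 2.96% of all protein-coding genes, and these 4 are long, from 91.5 kb for *Musk* to 1125 kb for *Dab1*. *Dab1*, the adaptor that carries the reelin signal from both reelin receptors, had 42.5% in WT-only DRs and 11.1% in KO-only DRs. *Cubn* encodes cubilin, which works with megalin in the kidney, and it had 31.1% of its span in KO-only DRs and 6.99% in WT-only DRs. *Musk*, the partner kinase of *Lrp4*, had 29.2% in WT-only and 25.8% in KO-only DRs. *Dab2*, an endocytic adaptor, had 15.1% and 29.9%. *Mylip*, which encodes a ubiquitin ligase that lowers receptors of this family including that of *Vldlr*, was IP with 44.4% of its span in a KO-only DR and its start site in it.

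Of 7 receptors from other families, *Cd36*, a fatty acid transporter, and *Stab2*, a scavenger receptor, were IP through 42.7% and 8.52% of their span, *Msr1* was AMB, *Olr1* was PP and *Scarb1*, *Stab1* and *Gpihbp1* were II. The 5 hepatocyte marker genes *Alb*, *Trf*, *Hpx*, *Fgb* and *Ahsg* were all II, as were 56.6% of all protein-coding genes. None met a LAD in either genotype, while 30.4% of all genes met a WT LAD and 41.7% a KO LAD. The markers span 7.40 to 40.1 kb and were not set against genes of like length. Their positions do not measure their expression.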

How the data were processed

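Per the labels and methods of the study, the authors mapped reads to mm9, computed per *DpnI* fragment a log2 ratio (Dam-LaminB1 over Dam only), segmented it with DNAcopy into LADs and obtained DRs by subtraction. The submitters' processing notes name BWA and limma without a role. The deposited lists used here hold positions only, as start and end coordinates of LADs and DRs. Repeating the subtraction with a 10 kb minimum returned all 7787 and 8208 DRs.

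Genes, transcripts, exons and sequences came from the NCBIM37 genome (mm9) and GENCODE vM1, with 1-based positions, using Python 3.11.15, numpy 2.4.6, pysam 0.24.0 and matplotlib 3.10.9. A gene met a region at an overlap of at least 1 base. Exons are given for the longest protein-coding transcript by exonic length. For *Dab2* and *Trf*, with 2 gene records, the longer was used. Genes named are the 8 receptors, the fixed related lists and the nearest protein-coding gene on each side. Overlaps and classes were tested on simulated data, with 0 errors over 500 gene spans. The genes and lists were chosen with earlier results of these data known. No test was made, since each genotype has a single pooled library pair. The DamID signal is not analysed here, and some related genes and sequences are not reported.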

Additional observations from a re-analysis of the deposited data

How the results depend on the processing

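The classes were recomputed under 8 other rules, and a number was counted as unchanged within a factor of 1.5. Of the 8 receptor genes 4 kept 1 class throughout, namely *Lrp1*, *Lrp5*, *Lrp6* and *Lrp8*. PI receptor genes fell from 1 to 0 by the start site only, for the 100 kb window and with DRs of at least 50 kb. IP receptor genes went from 1 to 2 at 10% of the span, by the start site, for the 100 kb window and with DRs of at least 20 kb, and to 0 at 50% of the span and with DRs of at least 50 kb. AMB receptor genes went from 1 to 0 at 10% and 50% of the span, by the start site and with DRs of at least 20 kb and 50 kb, and to 2 for the 100 kb window. PP receptor genes went from 0 to 1 at 50% of the span and with DRs of at least 50 kb. II stayed within the factor. LAD differences of any length and LADs joined across 50 kb changed no class of these 8.

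Of the related genes, PI ones went from 3 to 1 at 50% of the span and to 5 for the 100 kb window. IP ones went from 7 to 2 at 50% and with DRs of at least 50 kb, and to 12 for the window. AMB ones went from 6 to 0 at 50%, by the start site and with DRs of at least 50 kb, and to 2 with joined LADs and when DRs under 20 kb were left out. PP ones went from 3 to 12 at 50%, 6 by the start site, 9 with DRs of at least 50 kb and 7 with joined LADs. II ones went from 16 to 9 for the window.

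Over all protein-coding genes, PI went from 1215 to 498 both at 50% and by the start site, 2172 for the window, 727 and 172 with DRs of at least 20 and 50 kb, and 628 with joined LADs. IP went from 3826 to 1687 at 50%, 6062 for the window, and 2486 and 610 with DRs of at least 20 and 50 kb. Autosomes only and leaving out chromosome 19 kept both within the factor. The count of 3 genes with a KO LAD alone within 10 kb of the start was 3 within 5 kb and 2 within 20 kb, settings added after seeing the data. Of 232 recomputed values for single receptor genes (coverage, its KO-minus-WT difference, exons, start sites and distances) 209 were unchanged, 23 moved and 0 changed sign. A sign could change only in the difference, and not in the 5 II genes, where it was 0 by the main rule. Many of the unchanged values are 0 under both settings, for genes without a LAD, so these counts do not measure how firm the calls are. The moved ones include the KO LADs nearest to *Lrp4*, *Lrp6* and *Lrp8*, which are shorter than 20 kb, so that without such LADs the distances from their starts were 1038, 637 and 1729 kb, for *Lrp4* farther than the 1027 kb in WT. The cause of the other changes was not tested. No paired analysis was possible because each genotype has 1 library of each construct and the labels carry no replicate numbers.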
